A study of Mus musculus with 18 samples.

Results

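Primed CD8+ T cells cultured with IL-4 were set directly against the same cells cultured with IL-21, in the 6 arrays, of 18 in the study, that hold either cytokine. These were IL-4 replicates 1, 2 and 3 and IL-21 replicates 1, 2 and 3, chosen by their labels. All genes on the array with 1 gene symbol were described, 18194 in number. The cells were OT-I CD8+ T cells from male mice, which carry the Thy1.1 marker and a transgenic T cell receptor for the SIINFEKL peptide of ovalbumin. In every group, naïve cells were primed for 48 hours with irradiated C57BL/6 splenocytes pulsed with that peptide, viable cells were enriched on a density gradient, and the cells were then kept for 24 hours in medium alone or with 1 recombinant murine cytokine at 100 ng/ml. Media control, IL-2, IL-7 and IL-15 make up the other 4 groups, each with 3 biological replicates. The cells thus share 1 receptor specificity, 1 dose and 1 time point, RNA was taken from the whole culture, and replicates 1 and 2 were extracted with RNeasy while replicate 3 was extracted with TRIzol and Direct-zol.

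IL-4 and IL-21 belong to the same family of cytokines, whose receptors share the common gamma chain (γc) and signal through JAK1 and JAK3. The IL-4 receptor adds the IL-4Rα chain and in general acts mainly through STAT6, the factor known from type 2 helper T cells, whereas the IL-21 receptor acts mainly through STAT3. For CD8+ T cells, the authors cite work which proposes that both cytokines act largely via STAT3 and activate STAT6 little. In CD8+ T cells both cytokines are known to act on survival, memory formation and cytotoxic function.

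The 7 measured markers of CD8 T cells, among them Cd8a, Cd3e and Thy1, had group means between 10.8 and 13.8 on the log2 scale of the array. Of these 7 markers 4 passed the test described below. Cd8a was 0.68 higher with IL-4 (adjusted p = 0.000244), though not without the replicate block (0.23), and Cd8b1, the other CD8 chain, 0.50 higher (adjusted p = 0.0143). That call was lost without the block (0.483), without replicate 1 (0.222) or 2 (0.0533), and without 3 single arrays (IL-4 replicates 1 and 2 and IL-21 replicate 3, from 0.0589 to 0.0796). Cd2, an adhesion receptor of T cells, differed by -0.82 (adjusted p = 0.00153), but did not pass without replicate 1 (0.0961). Thy1 differed by -0.36 (adjusted p = 0.0105), a call lost without the block (0.201), without replicate 1 (0.304), without replicate 2 (0.152), without replicate 1 of IL-4 (0.0502) or of IL-21 (0.0718) and with only the 6 arrays (0.0748, or 0.069 on their deposited values). A level of 6.69 was taken as background, from 35 genes that belong to other tissues. Cd4 and Foxp3, the B cell genes Cd79a, Ms4a1 and Pax5, the NK cell genes Ncr1 and Klra8 and the red cell gene Alas2 lay under it with both cytokines. Above it lay Ighm, the immunoglobulin mu chain, with means of 11.98 (IL-4) and 12.19 (IL-21), the class II gene H2-Ab1 with 9.10 and 9.48, and the myeloid gene Lyz2 with 6.99 and 7.65. None of these 3 passed the test between the cytokines described below (adjusted p from 0.23 to 0.374), though Lyz2 did when only the 6 arrays were fitted (adjusted p = 0.0392) and H2-Ab1 did without replicate 3 (0.0168). Over the list of 14 B cell markers the summed level ran from 12.1 to 12.2 with IL-4 and from 12.3 to 12.4 with IL-21. For 20 myeloid markers it ran from 9.73 to 10.6 and from 9.83 to 11.3. For 12 NK cell markers it ran from 14.11 to 14.47 and from 14.34 to 15.03. The B cell sum lay close to the level of Ighm alone. The brightest NK cell markers were Gzma (IL-4 mean 13.71, IL-21 mean 14.08) and Nkg7 (12.32 and 13.06), both also listed below as genes of the cytotoxic granule. These 2 sums thus rest largely on such genes, and whether they follow the amount of B or NK cells was not tested. Of the B cell list 1 gene passed, Cd79b (0.57 higher with IL-4), of the myeloid list 1, Itgam, with a mean under background in both groups, and of the 8 genes of CD4 and regulatory T cells 2, Zbtb7b (-0.42) and Ikzf2 (-1.38). The myeloid list, with 3 of its 20 genes over background, had a median difference of -0.26. With only the 6 arrays fitted, 0 of the 20 were higher with IL-4 and 4 with IL-21. That fit called 749 and 1081 of all 18194 genes. Of the NK cell list 4 passed, the kinase gene Txk (-1.51) and Eomes, Nkg7 and Klre1, which are described below. None of Cd79b, Itgam, Zbtb7b and Ikzf2 passed without the replicate block (adjusted p from 0.0512 to 0.343) or without replicate 2 (from 0.104 to 0.311). Cd79b, Zbtb7b and Ikzf2 also did not pass without replicate 1 (from 0.0803 to 0.134), Cd79b not without IL-4 replicate 1 or IL-21 replicate 2 (0.0522 and 0.0818), and Zbtb7b not with only the 6 arrays (0.0621) or without IL-4 replicate 2 or 3 or IL-21 replicate 2 (from 0.0586 to 0.106). Their part in the results below was not tested, and in such bulk samples fewer cells of a type and less RNA per cell cannot be told apart. As a measure of RNA integrity, the level of actin at its 3' end exceeded that at its 5' end by 0.19 to 0.26 in the 4 RNeasy arrays and by 0.39 in both TRIzol arrays. For Gapdh the order was the reverse, with 0.039 to 0.091 in the RNeasy arrays and -0.011 and -0.013 in the TRIzol arrays, so the 2 controls do not rank the kits alike. Extraction thus moved with replicate number and not with cytokine. No IL-4 or IL-21 array lay on the lower scale of 3 arrays of other groups, whose deposited medians were 4.47 to 4.52.

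Of the 18194 genes, 2134 (11.7%) differed between the cytokines. IL-4 gave the higher level for 923 of them (5.07%) and IL-21 for 1211 (6.66%). Counts of the gene lists below stand against these shares. Levels are log2 intensities after quantile normalisation of the 18 arrays, differences are IL-4 minus IL-21, and a gene was taken to differ when the adjusted p of a limma fit with replicate number as a block was under 0.05. A difference of 1 on the log2 scale, or more, was found for 454 genes (2.5%), namely for 180 of the genes higher with IL-4 (0.989% of all genes) and for 274 higher with IL-21 (1.51%). At 2 or more the numbers were 41 and 69, and at 3 or more 7 and 24, so the largest differences were more often in the direction of IL-21. The median difference over all genes was 0.0092. For 1601 of the 2134 genes the 3 arrays of one cytokine all lay above the 3 of the other, a pattern that 17.8% of all genes showed. The same sign in each of the 3 replicate pairs was seen for 2128. A fit with replicate number as a block favours such genes, so this number adds no support to the calls. The median SE was 0.125, and the number of arrays limits the precision. On the deposited values of all 18 arrays, without renewed normalisation, 83 and 140 genes passed, and of the genes named Batf, Bcl2l1, Casp1, Casp4, Ccl17, Ccr2, Cd2, Cd79b, Cd8a, Cd8b1, Cd96, Cdkn2d, Ctsd, Ctsw, Gzmm, Ikzf2, Il13ra1, Il2rb, Il4ra, Il7r, Irf4, Itgam, Junb, Nkg7, Rbl2, Sh2b3, Socs1, Spry1, Stat3, Stat4, Thy1 and Zbtb7b did not (adjusted p from 0.0752 to 1). Any other alternative that ended a call is given beside the gene.

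**Figure D1:**
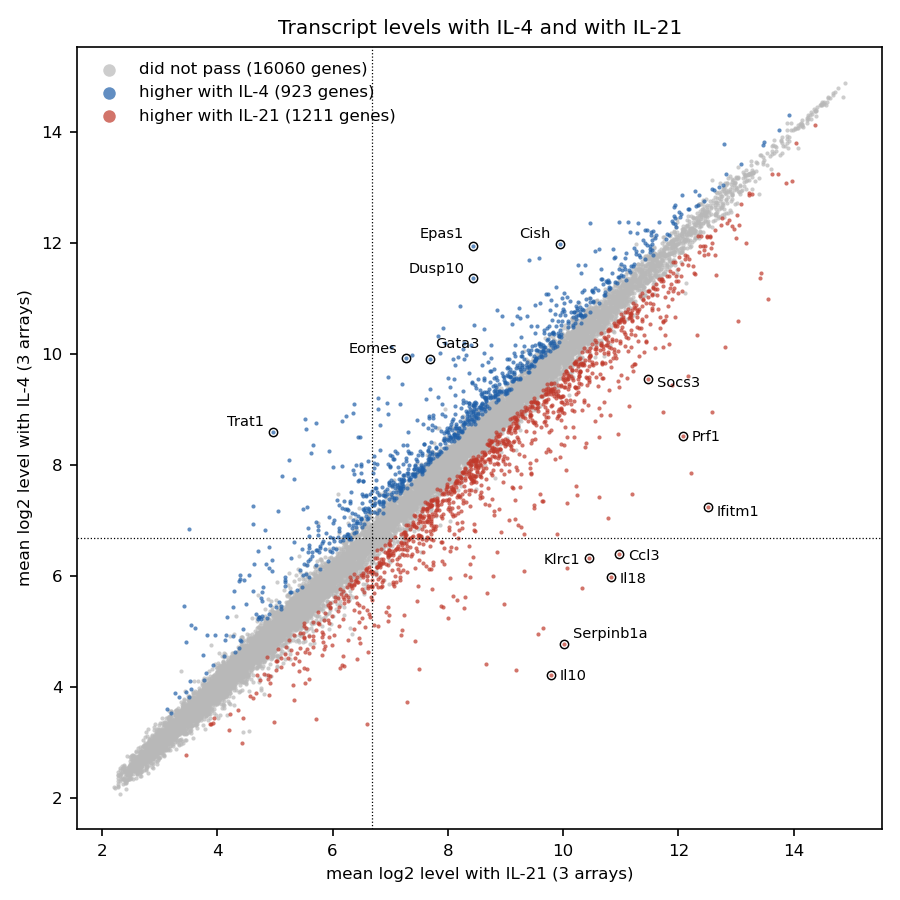
Mean log2 level of each of 18194 genes with IL-21 (x axis) and with IL-4 (y axis), 3 arrays per mean, with dotted lines at the background level of 6.69. The 923 genes in blue were higher with IL-4 and the 1211 in red were higher with IL-21, and the points farthest from the diagonal lie on the IL-21 side, such as Il10 at 4.23 with IL-4 and 9.79 with IL-21.

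Among the genes higher with IL-4, the largest difference was that of Trat1, which encodes an adaptor associated with the T cell receptor. It read 8.10, 9.25 and 8.46 with IL-4 (replicates 1 to 3) and 4.84, 5.08 and 4.98 with IL-21, a difference of 3.63 (SE 0.209, adjusted p = 3.71e-08). All 3 IL-21 arrays lay under background, so the size is not exact. Epas1, which encodes the hypoxia-inducible factor HIF-2α, was far over background with both cytokines. Its levels were 12.35, 12.25 and 11.24 with IL-4 against 8.87, 8.67 and 7.76 with IL-21, a difference of 3.51 (SE 0.276, adjusted p = 8.57e-07). The TRIzol array was the lowest in both groups, and the groups did not overlap. Dusp10, a phosphatase that inactivates stress-activated MAP kinases, varied least, with 11.39, 11.57 and 11.14 against 8.35, 8.64 and 8.31 (difference 2.93, SE 0.13, adjusted p = 4.56e-09).

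The other 12 of the 15 largest differences in this direction ranged from 2.64 to 3.34. They included genes of secreted or surface proteins, namely Cdh1 (E-cadherin, 3.34), Metrnl (a secreted protein related to meteorin, 3.12), Tafa3 (a small secreted protein, 3.12), Cd83 (a surface protein of activated lymphocytes and dendritic cells, 3.05), Efna5 (ephrin-A5, 2.72), Tnfsf13b (the B cell survival factor BAFF, 2.68) and Col6a2 (a chain of collagen VI, 2.64). Slc2a6, of the glucose transporter family, differed by 3.31, Grtp1 by 2.84, the nuclear protein gene Hemgn by 2.71, and Focad, whose product is focadhesin, by 2.64. Eomes, the transcription factor, completes the 15 and is described with its family. Col6a2 varied most in this group, reading 7.83, 10.12 and 8.45 with IL-4 against 6.08, 6.11 and 6.29 with IL-21. Hemgn and Cd83 read 8.47 and 8.09 on average in media control, close to their IL-4 levels of 8.36 and 8.76 rather than to the IL-21 levels of 5.66 and 5.71.

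In the direction of IL-21 the largest difference was that of Il10, the gene of an anti-inflammatory cytokine. It read 4.28, 4.35 and 4.05 with IL-4 against 9.98, 10.56 and 8.83 with IL-21, a difference of -5.57 (SE 0.366, adjusted p = 1.51e-07). The IL-4 arrays were all under background, as was the media control mean of 3.98. Ifitm1, a membrane protein known to restrict viruses, read 8.44, 6.58 and 6.69 against 12.33, 12.91 and 12.30, a difference of -5.28 (SE 0.446, adjusted p = 1.74e-06). Its media control mean of 9.10 lay between the cytokines. Moxd1, which encodes a monooxygenase-like protein, varied least among the large differences, with 5.00, 4.77 and 5.10 against 9.46, 9.91 and 9.32 (difference -4.61, SE 0.131, adjusted p = 5.11e-11).

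The other 12 of the 15 largest differences in this direction ranged from -3.73 to -5.23. They held 2 intracellular protease inhibitors, Serpinb1a (-5.23) and Serpinb5 (-4.88), and the cytokine Il18 (-4.85) together with a chain of its receptor, Il18r1 (-3.93). They also held the chemokines Ccl3 (-4.58) and Ccl4 (-4.36), the NK receptor Klrc1 (-4.13), and Gcnt1, the enzyme that starts core 2 branches on O-linked glycans (-4.24). B4galnt4, another glycosyltransferase, differed by -4.55, the membrane protein gene Emp1 by -4.58, the secreted protein gene Crispld2 by -3.73 and Ifitm3 by -3.73. Il18 stood at 9.31 in media control, between 5.98 with IL-4 and 10.83 with IL-21, while Gcnt1 (4.48), Moxd1 (4.86) and B4galnt4 (5.76) read about the same in media control as with IL-4 (4.43, 4.96 and 5.78). No test was made against media control in these sentences. Crispld2 is read by a probe set of the x type, which can hybridise with related transcripts, and its other 2 probe sets gave -3.86 and -2.68.

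**Figure D2:**
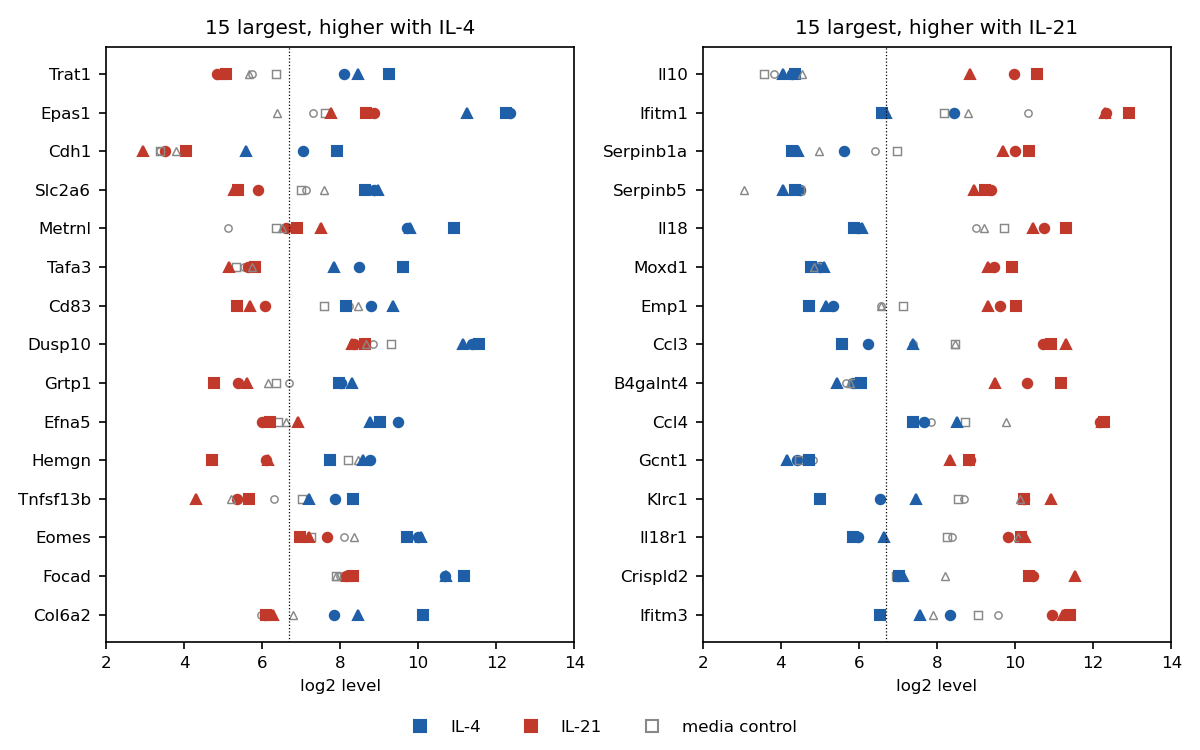
Log2 level (x axis) of the 15 genes with the largest difference in each direction, in each IL-4 array (blue), IL-21 array (red) and media control array (open grey), with circles, squares and triangles for replicates 1, 2 and 3 and a dotted line at the background level of 6.69. The 30 genes were chosen among those whose blue and red points do not overlap, and the media control points lie near the lower group for genes such as Il10 and Moxd1 and near the higher group for Hemgn.

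Among the 10 measured γc cytokine receptor genes and related chains, 2 were higher with IL-4 and 2 with IL-21, against the 11.7% of all genes that passed, with a median difference of -0.069. Il4ra, the chain that binds IL-4, read 10.96, 11.58 and 10.67 with IL-4 against 9.68, 10.18 and 9.33 with IL-21 (difference 1.34, SE 0.171, adjusted p = 8.41e-05). All IL-4 arrays were above all IL-21 arrays, and the media control mean was 9.09. Il2rb, the beta chain for IL-2 and IL-15, differed by 0.66 (adjusted p = 0.000735) and Il7r, the IL-7 receptor chain, by -0.91 (adjusted p = 0.00638), each with overlapping groups. Il13ra1 differed by -0.57 at levels under background. Il21r read 9.54 with IL-4 and 9.91 with IL-21 on average and did not pass (difference -0.37, adjusted p = 0.199), though it did with the 15 arrays that share a scale (0.0436). Il2ra, the high-affinity IL-2 receptor chain, read 11.3 in both groups against 8.59 in media control, and its difference of -0.073 (SE 0.19) did not pass. None of the 4 receptor genes that passed did so without the replicate block (adjusted p of Il4ra 0.112, of Il2rb 0.469, of Il7r 0.227 and of Il13ra1 0.299). Il2rb, Il7r and Il13ra1 also did not pass without replicate 1 (adjusted p 0.0617, 0.188 and 0.296) or without replicate 2 (0.0692, 0.158 and 0.222), and Il13ra1 not with only the 6 arrays (0.0555) or without 3 single arrays (IL-4 replicate 1 and IL-21 replicates 1 and 2, adjusted p from 0.0675 to 0.102).

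Of 11 JAK kinases, STAT factors and the STAT partner Irf9, 1 was higher with each cytokine, a share of 18.2% against the 11.7% of all genes. Stat4, which transmits IL-12 signals, read 11.86, 11.85 and 11.95 with IL-4 against 10.89, 11.01 and 10.68 with IL-21 (difference 1.03, SE 0.146, adjusted p = 0.000215). Stat3, the main factor of the IL-21 receptor, read 10.94, 11.07 and 10.75 against 11.50, 11.51 and 11.31 (difference -0.52, SE 0.122, adjusted p = 0.0108). The groups of both genes were separate. Stat6, in general the main factor of the IL-4 receptor, read between 10.48 and 10.96 in all 6 arrays and did not pass (difference 0.044, SE 0.074). Jak1 (-0.31, adjusted p = 0.126) and Jak3 (-0.30, adjusted p = 0.105) did not pass either, though both did with the 15 arrays that share a scale (0.0279 and 0.0174). The call of Stat3 was lost without replicate 1 (adjusted p = 0.224), without replicate 2 (0.103), without IL-4 replicate 3 (0.0527), without IL-21 replicate 2 (0.0554) and with the mean of its probe sets (0.0778).

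The inducible inhibitors that limit cytokine signalling divided between the cytokines. Of 27 measured members of the SOCS family and other feedback inhibitors, 5 were higher with IL-4 and 2 with IL-21 (25.9% in all), and the median was 0.009. Cish, a SOCS family gene known to respond to STAT5, read 11.98, 12.27 and 11.70 with IL-4 against 10.07, 10.13 and 9.62 with IL-21, against a media control mean of 8.10 (difference 2.04, SE 0.272, adjusted p = 0.000119). Socs3, which inhibits receptors that use STAT3, went the other way, with 9.43, 9.94 and 9.29 against 10.94, 12.07 and 11.44 (difference -1.93, SE 0.137, adjusted p = 3.22e-07). The groups of both genes were separate, and all 6 arrays of both lay over the media control mean, which was 8.44 for Socs3. Socs1, which inhibits JAK kinases, differed by 1.35 (SE 0.157, adjusted p = 3.53e-05). Socs2 read 1.06 higher with IL-4, in 3 of 3 pairs, and did not pass (SE 0.377, adjusted p = 0.0898), though it did when only the 6 arrays were fitted (adjusted p = 0.00141). Dusp4, a MAP kinase phosphatase like Dusp10, read 9.67, 10.16 and 10.13 against 7.70, 6.99 and 7.43 (difference 2.62, SE 0.251, adjusted p = 5.98e-06). Sh2b3, an adaptor that restrains JAK2, differed by 0.71, and Spry1, an inhibitor of the Ras pathway, by -0.44. The call of Socs1 was lost without the replicate block (adjusted p = 0.0673), and that of Spry1 without any 1 of the 3 replicates (adjusted p from 0.0589 to 0.253), without the block (0.565), without 4 single arrays (IL-4 replicates 2 and 3 and IL-21 replicates 2 and 3, from 0.0507 to 0.104) and with only the 6 arrays (0.0656).

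STAT factors bind DNA at palindromes, TTCNNNGAA in general and, in the case of STAT6, a longer form with 4 bases of any kind between TTC and GAA. To show where such letters stand, 5 promoter windows are printed from RefSeq (mouse build GRCm38.p6), from 250 bases before to 30 after the annotated start, 5′ to 3′ on the gene's own strand, with the palindromes in capitals. Of the 15 largest differences in each direction, Epas1, Cdh1, Cd83, Il10, Serpinb1a and Ccl4 were not scanned. Of 37 genes scanned from the others and the genes of cytokine response, 12 held either palindrome, and the 5 shown were picked from these after the search. The genes are the feedback inhibitors that went in opposite directions, Cish (chr9:107296409-107296688, plus strand) and Socs3 (chr11:117969337-117969616, minus strand), and, from the 15 largest differences, Tnfsf13b (chr8:10006217-10006496, plus strand), which was higher with IL-4, and Gcnt1 (chr19:17356638-17356917, minus strand) and Moxd1 (chr10:24223267-24223546, plus strand), which were higher with IL-21.
Cish: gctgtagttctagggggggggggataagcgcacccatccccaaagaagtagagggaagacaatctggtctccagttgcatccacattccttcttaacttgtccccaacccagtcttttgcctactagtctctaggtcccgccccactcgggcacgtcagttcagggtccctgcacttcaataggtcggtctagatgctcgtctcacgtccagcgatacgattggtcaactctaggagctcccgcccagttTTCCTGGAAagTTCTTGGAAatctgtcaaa
Socs3: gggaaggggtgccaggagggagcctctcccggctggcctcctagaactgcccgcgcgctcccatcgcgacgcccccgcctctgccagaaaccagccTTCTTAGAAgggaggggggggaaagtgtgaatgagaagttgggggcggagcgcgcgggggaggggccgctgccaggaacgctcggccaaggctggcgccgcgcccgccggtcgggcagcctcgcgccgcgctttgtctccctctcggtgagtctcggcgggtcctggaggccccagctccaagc
Tnfsf13b: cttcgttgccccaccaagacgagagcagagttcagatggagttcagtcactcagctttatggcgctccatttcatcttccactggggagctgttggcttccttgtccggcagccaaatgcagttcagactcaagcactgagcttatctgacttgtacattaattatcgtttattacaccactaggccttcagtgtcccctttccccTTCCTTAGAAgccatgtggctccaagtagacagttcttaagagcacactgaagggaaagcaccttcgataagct
Gcnt1: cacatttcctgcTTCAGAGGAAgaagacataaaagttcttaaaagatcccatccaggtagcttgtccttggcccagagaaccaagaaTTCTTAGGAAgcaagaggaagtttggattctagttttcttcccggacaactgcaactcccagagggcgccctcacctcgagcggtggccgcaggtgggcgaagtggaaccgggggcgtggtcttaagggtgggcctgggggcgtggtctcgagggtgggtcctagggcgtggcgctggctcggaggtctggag
Moxd1: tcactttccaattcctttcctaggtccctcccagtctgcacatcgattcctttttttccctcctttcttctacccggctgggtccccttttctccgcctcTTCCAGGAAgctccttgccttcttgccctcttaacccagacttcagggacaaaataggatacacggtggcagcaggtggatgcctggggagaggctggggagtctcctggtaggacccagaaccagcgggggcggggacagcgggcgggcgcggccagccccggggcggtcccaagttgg

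Cish holds TTCNNNGAA at 1 and at 12 bases after its start, Socs3 at -154 and Moxd1 at -150. The longer form stands at -44 in Tnfsf13b, and at -238 and -163 in 1 of 3 windows of Gcnt1, a gene that was higher with IL-21, whose other windows held neither palindrome. Either palindrome reads the same on both strands, and the 2 forms cannot start at the same base. Of 18110 promoter windows of 300 bases, of 14453 genes, 7.21% held TTCNNNGAA and 5.87% held the longer form. TTCNNNGAA stood in 7.64% of the windows of genes higher with IL-4 and in 7.57% for IL-21, and where the difference was 1 or more in 8.70% and 10.4%. The longer form stood in 7.54% of the windows of genes higher with IL-4 and in 4.95% for IL-21, and where the difference was 1 or more in 10.1% (21 of 207) and 5.88% (17 of 289). Those 207 and 289 windows came from 147 and 219 genes. Windows of 1 gene can overlap, so 1 site can be counted more than once, as in Tnfsf13b (at -44 and at -210). These shares are a description, with no test, and the letters alone do not show a bound site.

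Genes listed for a known response to IL-4 and STAT6, or to IL-21 and STAT3, mostly stood on the side of their cytokine. Both lists were chosen with earlier results of these data known, so this describes the lists and tests neither pathway. Of 29 measured genes of the first list, 16 stood higher with IL-4 and 3 lower, 10 did not pass, and the median difference was 0.67. Of 26 of the second list, 15 were higher with IL-21, 2 with IL-4 and 9 did not pass, with a median of -0.69. Over all genes 11.7% passed and the median was 0.0092. On the first list, beside Epas1, Cish and Socs1, stood Gata3, the transcription factor that directs type 2 responses. It read 10.23, 10.21 and 9.29 with IL-4 against 8.14, 8.12 and 6.81 with IL-21 (difference 2.22, SE 0.179, adjusted p = 1.08e-06), with separate groups and a media control mean of 9.11 between them. Ccr4, a chemokine receptor of type 2 T cells, differed by 1.99 (adjusted p = 8.32e-06) and the repressor Gfi1 by 1.39 (adjusted p = 5.04e-05). Cyp11a1, the enzyme that starts steroid synthesis, stood against the list, with 5.54, 5.66 and 5.74 with IL-4 against 8.35, 7.30 and 8.62 with IL-21 (difference -2.44, SE 0.226, adjusted p = 4.38e-06). Its IL-4 arrays were under background, and its other 2 probe sets, with means under background, gave 0.40 and 0.068 without passing. The list had 8 members higher with IL-4 when the replicate block was left out, and 8 on the deposited values of all 18 arrays.

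The second list was led by Il10. Next came Il1r1, the IL-1 receptor, with 5.92, 5.95 and 6.17 with IL-4 against 8.70, 8.23 and 9.42 with IL-21 (difference -2.77, SE 0.174, adjusted p = 1e-07), and Timp1, an inhibitor of metalloproteinases (-2.61, adjusted p = 5.67e-07). All IL-4 arrays of both genes were under background. Il21 itself differed by -1.83 (adjusted p = 2.78e-05), at 6.20 in the IL-21 group, which is under background. Bcl3, a partner of NF-kappaB, differed by -1.58 (adjusted p = 1.72e-06). Lif, a cytokine of the IL-6 family, stood against the list with 8.04, 8.87 and 8.60 with IL-4 against 6.25, 6.70 and 6.49 with IL-21 (difference 2.02, SE 0.173, adjusted p = 1.96e-06). On the deposited values of all 18 arrays 8 members of the second list were higher with IL-21, and without replicate 1 or without replicate 2 the number was 10 each time.

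Among genes of the cytotoxic granule that passed, nearly every one was higher with IL-21. Of 22 measured, 10 were higher with IL-21 (6 without the replicate block, 5 on the deposited values of all 18 arrays), 1 with IL-4 and 11 did not pass, and the median was -0.30. Prf1, perforin, read 8.69, 8.34 and 8.56 with IL-4 against 12.19, 12.13 and 11.89 with IL-21, a difference of -3.54 (SE 0.143, adjusted p = 2.22e-09) or 11.6-fold. The groups were far apart, and the media control mean of 7.97 was near the IL-4 arrays. A further probe set for perforin, with a mean under background, gave -0.056 (adjusted p = 0.88). The main granzymes were near the top of the scale. Gzma read 13.67, 13.95 and 13.51 with IL-4 against 14.15, 14.50 and 13.58 with IL-21 (difference -0.37, SE 0.238, adjusted p = 0.421). Gzmb read 14.64, 14.60 and 14.62 against 14.80, 14.80 and 14.94 (difference -0.23, SE 0.183, adjusted p = 0.544). Neither passed, and both lay over their media control means of 8.84 and 12.43 in all 6 arrays. The highest level on any of the 6 arrays was 14.94, which Gzmb itself reached in 1 of them, so these values do not show whether granzyme B transcript differed. 

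Gzmk, a granzyme of memory-like CD8+ T cells, read 6.07, 5.80 and 6.43 with IL-4, all under background, and 8.63, 9.94 and 9.42 with IL-21 (difference -3.23, SE 0.247, adjusted p = 6.98e-07). Gzmd differed by -3.26 (adjusted p = 3.87e-05) and Gzme by -1.56 (adjusted p = 0.00108). Both are read by probe sets of the x type, these granzymes are near-identical in sequence, and in 2 of the 3 IL-21 arrays Gzmd was under background, with 8.61, 5.68 and 5.47. Without the replicate block neither passed (adjusted p 0.0823 for Gzmd and 0.0561 for Gzme), nor did Gzme without replicate 1 (0.0555). Gzmc (0.38, adjusted p = 0.283) did not pass, though it did without replicate 3 (adjusted p = 0.0465). Nkg7, a granule membrane protein, differed by -0.74 (adjusted p = 3.17e-05) and the proteases Ctsw and Ctsd by -0.71 and -1.15. Serpinb9, which protects the cell from its own granzyme B, read 9.72, 8.98 and 9.37 with IL-4 against 11.29, 10.56 and 10.55 with IL-21 (difference -1.45, SE 0.151, adjusted p = 1.34e-05). Gzmm was the 1 member higher with IL-4 (0.61, adjusted p = 0.0105). Its call was lost without replicate 1 (adjusted p = 0.168), without replicate 3 (0.0708), without 3 single arrays (IL-4 replicates 1 and 3 and IL-21 replicate 3, from 0.0522 to 0.0608) and with only the 6 arrays (0.052). Ctsw was not called without the block (0.0786) or without replicate 1 (0.0825).

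Receptors first known from NK cells were higher with IL-21 or did not pass. None of 21 measured was higher with IL-4, 7 were higher with IL-21 (33.3%), and the median was -0.27. Only 9 of the 21 were over background with either cytokine, and Cd244a, counted as higher with IL-21, had means under it with both. Klrc1, the inhibitory receptor NKG2A, read 6.53, 4.99 and 7.45 with IL-4 against 10.23, 10.22 and 10.91 with IL-21 (difference -4.13, SE 0.266, adjusted p = 1.19e-07). Klrd1, its CD94 partner, read 10.22, 9.35 and 10.82 against 12.73, 12.87 and 12.80 (difference -2.67, SE 0.282, adjusted p = 1.47e-05). In both, replicate 2 was the lowest of the IL-4 arrays and replicate 3 the highest, and no IL-4 array reached the IL-21 range. Klrk1, the activating receptor NKG2D, differed by -2.78 (SE 0.284, adjusted p = 1.13e-05), Klre1 by -1.97 and Klrb1f by -1.52. The media control means of Klrd1 (13.45) and Klrk1 (12.06) were over their means in both cytokine groups (10.13 and 12.80 for Klrd1, 8.95 and 11.73 for Klrk1). The NK cell genes Ncr1 and Klra8 were under background in both groups, at means of 3.17 to 4.25.

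Of 19 measured chemokines 4 were higher with IL-21, 1, Ccl17, with IL-4 (26.3% in all) and 14 did not pass, with a median of -0.20. Ccl3 and Ccl4, chemokines of inflammation, read 6.24, 5.56 and 7.37 and 7.67, 7.39 and 8.52 with IL-4. With IL-21 they read 10.71, 10.92 and 11.29 and 12.17, 12.26 and 12.22. These are the differences of -4.58 and -4.36 given above, or 23.9-fold and 20.5-fold. Ccl9 differed by -3.48 (SE 0.486, adjusted p = 0.000185) and Ccl5, a chemokine of effector T cells, by -2.40 (SE 0.286, adjusted p = 4.43e-05). For Ccl5 the IL-21 mean of 10.96 was near that of media control (10.69), and the IL-4 mean was 8.55. Ccl17 differed by 0.52 at levels under background, and its call was lost without the block (adjusted p = 0.377), without replicate 1 (0.36), without replicate 2 (0.0787) and without 4 single arrays (IL-4 replicates 1 and 2 and IL-21 replicates 1 and 3, from 0.0615 to 0.127).

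In the wider list of type 1 effector genes, 8 of 17 measured were higher with IL-21 and 2, Eomes and Stat4, with IL-4, with a median of -0.66. Il18rap, the second chain of the IL-18 receptor, read 7.35, 7.25 and 7.85 with IL-4 against 9.28, 9.67 and 9.85 with IL-21 (difference -2.12, SE 0.16, adjusted p = 6.15e-07). Together with Il18r1 and Il18, both chains of the receptor and the ligand were higher with IL-21. Hlx, a homeobox factor known from type 1 T cells, differed by -2.60 (adjusted p = 2.23e-08), with all IL-4 arrays under background. Ifng, interferon gamma, read 8.80, 8.09 and 8.63 with IL-4 against 10.37, 10.60 and 9.59 with IL-21 (difference -1.68, SE 0.346, adjusted p = 0.00439). The groups were separate, and the call was lost without the block (adjusted p = 0.0514) and without replicate 1 (0.11).

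Transcription factors that set effector and memory states differed in both directions. Of 32 measured, 5 were higher with IL-4 and 10 with IL-21, with a median of -0.23. Without replicate 2 the numbers were 5 and 4, without replicate 1 or without the block 3 and 5, and on the deposited values of all 18 arrays 2 and 4. Eomes, which is tied to memory and cytotoxic function, read 9.99, 9.72 and 10.07 with IL-4 against 7.66, 6.98 and 7.20 with IL-21 (difference 2.65, SE 0.158, adjusted p = 5.5e-08), and 7.90 on average in media control. Tbx21, which encodes the related factor T-bet, read 10.26, 10.40 and 9.74 against 10.31, 10.76 and 10.36 and did not pass (difference -0.35, SE 0.153, adjusted p = 0.189). Prdm1, the effector factor Blimp-1, read 6.90, 7.82 and 6.89 against 8.36, 9.68 and 8.63 (difference -1.68, SE 0.228, adjusted p = 0.000138). Bcl6, which is known to oppose Blimp-1, read 6.25, 6.76 and 6.61 against 7.96, 8.59 and 8.54 (difference -1.83, SE 0.288, adjusted p = 0.000522). Both antagonists were higher with IL-21, each with separate groups. Relative to media control the levels of the pair were unlike, since the media mean of Prdm1 was 5.18, below both groups, and that of Bcl6 was 7.37, between them.

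Hopx, a homeodomain protein of effector T cells, read 10.31, 10.75 and 10.74 with IL-4 against 12.83, 13.08 and 13.18 with IL-21 (difference -2.43, SE 0.1, adjusted p = 2.22e-09). Zbtb32, a repressor in activated lymphocytes, differed by -1.59 (adjusted p = 3.35e-06). Batf, an AP-1 factor of activated T cells, differed by 0.68 (adjusted p = 0.0241), Irf4, its partner, by -0.64 (adjusted p = 0.00505), and Maf by 0.68 without passing (SE 0.26, adjusted p = 0.121). Maf passed when only the 6 arrays were fitted (adjusted p = 0.0181) and without replicate 3 (0.0299). The calls of Batf and Irf4 were lost without the block (adjusted p 0.0852 and 0.48) and without replicate 2 (0.147 and 0.212). That of Batf was also lost without replicate 1 (0.244), IL-4 replicate 2 (0.151), IL-21 replicate 1 (0.0985) or IL-21 replicate 2 (0.0843), and that of Irf4 with the mean of its probe sets (0.181).

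Secreted cytokines other than chemokines were more often higher with IL-4. Of 21 measured, 7 were higher with IL-4 and 3 with IL-21, with a median of 0.205. Only 12 of the 21 were over background with either cytokine. Il6 and Il13, counted as higher with IL-4, and Il21, counted as higher with IL-21, had means under it with both. A fit kept to genes over background used a stricter cut, which left 9 of the 21 and dropped Il10. In that fit 4 were higher with IL-4 and 1 with IL-21. Il10 itself averaged 9.79 with IL-21, over background, and was called in the main fit. Csf2, which encodes GM-CSF, read 7.66, 7.20 and 9.02 with IL-4 against 6.37, 5.51 and 6.15 with IL-21 (difference 1.95, SE 0.205, adjusted p = 1.41e-05). All IL-21 arrays were under background. Ebi3, a subunit of IL-27 and IL-35, differed by 1.55 (adjusted p = 5.25e-06) with an IL-4 mean of 7.90 near the media control mean of 8.04. Among 26 other cytokine receptors, 9 were higher with IL-21 and 3 with IL-4. Il6ra, the IL-6 receptor, read 5.05, 4.91 and 5.97 with IL-4 against 6.72, 7.26 and 7.76 with IL-21 (difference -1.94, SE 0.177, adjusted p = 3.8e-06). Ifngr2, a chain of the interferon gamma receptor, went the other way, with 7.30, 7.40 and 7.05 against 5.70, 5.61 and 5.33 (difference 1.70, SE 0.187, adjusted p = 2.24e-05). Each gene was over background with 1 cytokine only. Their other probe sets, with means under background, gave -0.19 for Il6ra and 0.69 for Ifngr2 and did not pass.

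Of 22 measured inhibitory receptors, 8 were higher with IL-21 (5 on the deposited values of all 18 arrays), 1, Cd96, with IL-4 and 13 did not pass, with a median of -0.22. Nt5e, the ectoenzyme CD73, read 6.63, 5.21 and 6.13 with IL-4 against 8.94, 8.59 and 7.64 with IL-21 (difference -2.40, SE 0.258, adjusted p = 1.75e-05). Havcr2, the receptor TIM-3, read 6.54, 6.16 and 6.37 against 8.63, 8.62 and 8.04 (difference -2.08, SE 0.182, adjusted p = 2.53e-06), and Btla 7.95, 7.76 and 9.25 against 9.92, 9.99 and 11.20 (difference -2.05, SE 0.146, adjusted p = 3.22e-07). A further probe set for Nt5e, with a mean under background, gave 0.064 without passing. The TRIzol array was the highest in both groups for Btla and the groups were separate for all 3 genes. Pdcd1, the receptor PD-1, differed by -1.59 (SE 0.179, adjusted p = 2.78e-05). The media control means placed these genes differently, at 4.47 for Havcr2, under both cytokines, and at 10.49 for Btla, level with IL-21 (10.37).

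Among 13 measured ligands of the TNF family, 5 were higher with IL-4 and 2 with IL-21. Tnfsf13b and Tnfsf11 (RANK ligand) differed most. Tnfsf11 read 8.24, 7.78 and 8.64 with IL-4 against 5.89, 5.37 and 5.62 with IL-21 (difference 2.59, SE 0.17, adjusted p = 1.5e-07), with 7.86 in media control. Of 24 receptors of that family 2 were higher with IL-4 and 4 with IL-21 (25% in all) and none differed by more than 1.39. Among 32 genes of the T cell receptor complex and costimulation, 5 were higher with IL-4 and 11 with IL-21, but 3 and 2 without replicate 1 and 3 and 4 without replicate 2. Rasgrp1, which links the receptor to Ras, read 11.69, 12.15 and 11.26 with IL-4 against 9.29, 9.83 and 9.11 with IL-21 (difference 2.29, SE 0.107, adjusted p = 6.32e-09). Without the block the list had 2 members higher with IL-4 and 3 with IL-21.

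Genes of the BCL2 family, caspases and their regulators differed in both directions, 6 of 30 being higher with IL-4 and 8 with IL-21. The largest differences were on the side of IL-4. Dapl1, a gene related to death-associated protein, read 11.66, 11.29 and 12.23 with IL-4 against 9.45, 9.02 and 10.27 with IL-21 (difference 2.15, SE 0.176, adjusted p = 1.29e-06). Bcl2, the inhibitor of mitochondrial apoptosis, read 12.24, 12.65 and 12.20 with IL-4 against 10.50, 10.78 and 10.13 with IL-21 (difference 1.89, SE 0.251, adjusted p = 0.000119). The groups of both genes were separate, and for Bcl2 the IL-21 arrays stood near the media control mean of 10.41, whereas for Dapl1 that mean, 12.61, lay over both cytokines. Bcl2l1, which encodes the related inhibitor BCL-XL, differed by 0.91 (adjusted p = 0.00211). In the direction of IL-21 the largest were Casp1 and Casp4, caspases of inflammation, at -1.16 (adjusted p = 0.000952) and -0.98 (adjusted p = 0.000129). Without the block the list had 3 members higher with each cytokine, and on the deposited values of all 18 arrays 2 and 0, while without replicate 1 the numbers were 2 and 1 and without replicate 2 they were 2 and 4. Bcl2l1 did not pass without replicate 1 (adjusted p = 0.0587) or replicate 2 (0.0566), Casp1 not without replicate 1 (0.0526) and Casp4 not without the block (0.251).

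Of 32 genes that control entry into the cell cycle, 3 were higher with IL-4 and 6 with IL-21 (28.1% in all), with a median of -0.045. The numbers were 2 and 3 without the block or without replicate 2, and 2 and 4 without replicate 1. Pim3 and Pim2, kinases of growth and survival, read 1.82 (SE 0.169, adjusted p = 4.39e-06) and 1.26 (SE 0.188, adjusted p = 0.000335) higher with IL-4. Mxd1, a repressor that opposes MYC, was higher with IL-21, at 7.22, 7.75 and 7.12 against 9.92, 10.26 and 8.72 (difference -2.27, SE 0.247, adjusted p = 2.01e-05). The same direction held for Cdkn2d, an inhibitor of the G1 kinases CDK4 and CDK6 (-1.11, adjusted p = 2.33e-06), and for Rbl2, the retinoblastoma relative p130 (-0.84, adjusted p = 0.000117). Among 26 AP-1, BATF and IRF factors, 3 were higher with IL-4 and 5 with IL-21 (30.8% in all), but 0 and 1 without the block, 2 and 2 without replicate 1, 2 and 1 without replicate 2, and 1 and 0 on the deposited values of all 18 arrays. Nfil3, a bZIP repressor that responds to IL-4, read 11.08, 12.28 and 11.44 with IL-4 against 10.02, 10.76 and 9.96 with IL-21 (difference 1.35, SE 0.231, adjusted p = 0.00104), over a media control mean of 7.52, and did not pass without the block (0.0729). Junb, an AP-1 subunit, differed by -0.83 (SE 0.097, adjusted p = 3.47e-05).

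Genes of zinc and ion transport differed in both directions. Of 15 metallothionein and zinc transporter genes, 5 were higher with IL-21 and 2 with IL-4, but 3 and 0 without the block or without replicate 1, and 3 and 1 without replicate 2. Slc30a4, a zinc exporter, read 9.44, 9.69 and 9.76 with IL-4 against 10.98, 11.01 and 11.04 with IL-21 (difference -1.38, SE 0.112, adjusted p = 1.2e-06). Mt2, a metallothionein, which binds zinc, differed by -1.60 (SE 0.293, adjusted p = 0.00183), a call lost without replicate 2 (0.129). Of 17 ion channel genes, 6 were higher with IL-4 and 4 with IL-21, but 3 and 1 without the block, 2 and 1 without replicate 1 and 2 and 3 without replicate 2. The potassium channel Kcnk5 read 9.53, 10.41 and 9.87 against 7.84, 8.52 and 8.18 (difference 1.76, SE 0.208, adjusted p = 4.19e-05). Another potassium channel, Kcnj8, read 5.16, 5.24 and 4.67 with IL-4, under background, against 7.29, 7.40 and 6.93 with IL-21 (difference -2.18, SE 0.139, adjusted p = 1.11e-07). Both had separate groups.

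Receptors that guide migration were split. Of 26 measured receptors for chemokines and related mediators, 5 were higher with IL-4 and 6 with IL-21, but 1 and 4 without the block, 2 and 3 without replicate 1, 4 and 2 without replicate 2, and 2 and 2 on the deposited values of all 18 arrays. S1pr1, the receptor for exit from lymphoid tissue, read 5.49, 5.25 and 5.60 with IL-4, under background, and 7.54, 8.68 and 7.52 with IL-21 (difference -2.47, SE 0.357, adjusted p = 0.000252). Both groups were under the media control mean of 9.80. Gpr183, an oxysterol receptor that positions lymphocytes, differed by -2.30 (adjusted p = 7.73e-06). Ccr4, given above, was the largest in the direction of IL-4. Ccr2, a receptor for monocyte chemoattractant chemokines, depended on the probe set. The one with the highest mean, used in the counts, gave -0.90 (SE 0.215, adjusted p = 0.0118), a call lost without replicate 2 (0.136) and without IL-21 replicate 2 (0.0831). Another read 4.69, 4.97 and 4.94 with IL-4 against 8.88, 9.44 and 8.73 with IL-21 (difference -4.15, SE 0.246, adjusted p = 6.08e-08 over all probe sets), with separate groups and a media control mean of 4.91. The remaining 2 gave -3.02 and -2.39, so that all 4 probe sets of Ccr2 passed in the direction of IL-21. In all, 17 genes had a probe set that passed with a difference larger by 1 or more than that of the one used, and for 11 of them the one used did not pass. Of 30 integrins and adhesion genes, 3 were higher with IL-4 and 11 with IL-21. Itga4, the alpha 4 integrin, differed by -1.54 (adjusted p = 6.36e-05) and Itgb3, the beta 3 integrin, by 1.59 (adjusted p = 7.98e-05), so that chains of different integrins went in opposite directions. Without the block 1 and 4 of the adhesion genes passed, and without replicate 1 or without replicate 2 it was 1 and 7.

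The IFITM genes stood apart from the rest of the interferon response. Of 41 measured genes of that response 6 were higher with IL-4 and 5 with IL-21, with a median of 0.14. The first number fell to 2 without the block, to 1 without replicate 1 and to 0 on the deposited values of all 18 arrays, where the second was 5, 4 and 4. Ifitm1, Ifitm2 and Ifitm3 were 3 of the 5. Ifitm2 read 7.40, 7.46 and 7.42 with IL-4 against 10.60, 11.24 and 10.05 with IL-21 (difference -3.21, SE 0.3, adjusted p = 4.7e-06), and Ifitm3 8.32, 6.53 and 7.56 against 10.94, 11.41 and 11.23 (difference -3.73, SE 0.394, adjusted p = 1.52e-05). The groups did not overlap. The IFITM genes are closely related in sequence, so that 1 probe set may read several. Ifi209, of the family that senses DNA, differed by -2.12 (adjusted p = 5.68e-05). Of the 6 genes higher with IL-4, none differed by more than 1.67.

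Protease inhibitors of the serpin family gave 8 of 15 measured members higher with IL-21 and none with IL-4, and a median of -0.64. Only 7 of the 15 were over background with either cytokine. Serpinb1b and Serpinb9b, counted as higher with IL-21, had means under it with both. Serpinb1a read 5.61, 4.29 and 4.44 with IL-4 and from 9.68 to 10.36 with IL-21, and Serpinb5 4.48, 4.36 and 4.07 against 9.38, 9.22 and 8.95. All IL-4 arrays were under background. Of 23 S100, annexin and related genes 13 were higher with IL-21 and 2 with IL-4, with a median of -0.455. Anxa1, a regulator of inflammation, differed by -2.43 (SE 0.267, adjusted p = 2.17e-05) and Vim, the intermediate filament vimentin, by -1.98 (SE 0.145, adjusted p = 4.49e-07). Of 30 genes of autophagy and the lysosome, 11 were higher with IL-21 and 2 with IL-4, with a median of -0.14. On the deposited values of all 18 arrays none of the lysosomal genes and 2 of the S100 and annexin genes were higher with IL-21.

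None of 20 measured genes of cholesterol synthesis passed, their differences lay between -0.36 and 0.63, and with the 15 arrays that share a scale 2 passed. Of 25 glycolysis genes 2 were higher with IL-4 and 1 with IL-21, a share of 12% against the 11.7% of all genes, and none passed without the block or without replicate 1. Of 25 genes of oxygen sensing and HIF targets, among which Epas1 is counted, 2 were higher with each cytokine (16% in all). Of 34 ribosome biogenesis genes, 8 were higher with IL-4 and 1 with IL-21, with a median of 0.31. Of 43 genes of DNA replication and mitosis, 9 were higher with IL-4 (20.9%) and none with IL-21, with a median of 0.29 and no difference over 0.92. The counts of the ribosome and DNA replication lists rest on the fit. Without the replicate block 0 and 1 of the respective genes were higher with IL-4, without replicate 1 none of either, without replicate 2 the numbers were 1 and 0, and with the 15 arrays on 1 scale 21 and 14. Of 30 genes of amino acid synthesis and ATF4 targets, 5 were higher with IL-4 (16.7%) and none with IL-21. Without the block or without replicate 2 none of these passed, and without replicate 1 the number was 3. Elovl6, an enzyme that elongates fatty acids, gave the largest difference among 21 genes of fatty acid synthesis, with 9.54, 9.59 and 9.55 with IL-4 against 10.92, 11.41 and 11.01 with IL-21 (difference -1.55, SE 0.1, adjusted p = 1.19e-07).

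**Figure D3:**
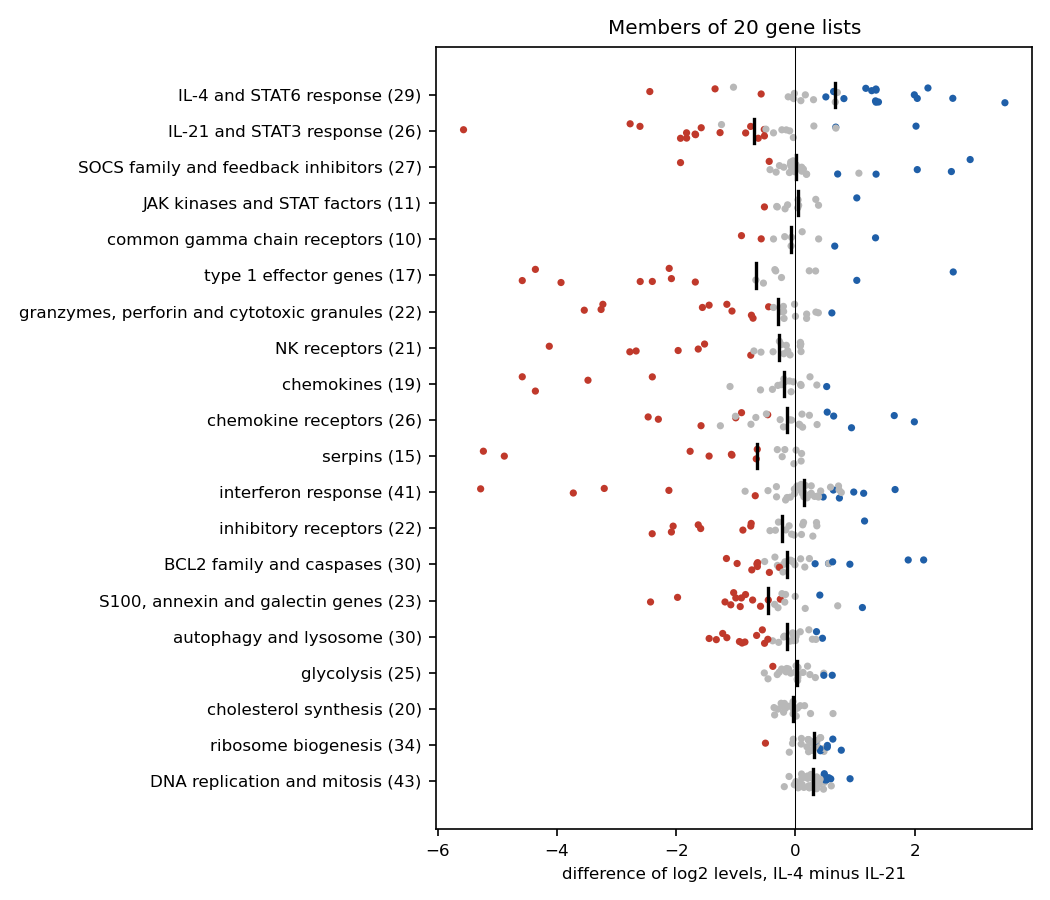
Difference of log2 levels, IL-4 minus IL-21 (x axis), for the measured members of 20 gene lists, with the number measured in brackets. Blue points were higher with IL-4, red points higher with IL-21 and grey points did not pass, and the black bar is the median of a list, which runs from -0.69 for the IL-21 and STAT3 response to 0.67 for the IL-4 and STAT6 response.

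Levels in media control place the differences, as a description with no test. Of the 180 genes higher with IL-4 by 1 or more, the media control mean lay between both cytokines for 105, nearer IL-21 for 73 of these, over both for 23 and under both for 52. Of the 274 higher with IL-21, it lay between for 152, nearer IL-4 for 85 of these, over both for 42 and under both for 80. Across the 6 groups, Il10, Prf1, Socs3 and Ifitm1 had their highest mean with IL-21, and Epas1, Dusp10, Eomes and Gata3 with IL-4. Cish and Bcl2 were shared with other cytokines, since Cish averaged 11.40 with IL-2 and 11.01 with IL-7 against 11.98 with IL-4, and Bcl2 averaged 12.13 with IL-2 and 12.19 with IL-7 against 12.36 with IL-4. Klrc1 and Ccl3 had their lowest mean with IL-4, at 6.33 and 6.39.

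**Figure D4:**
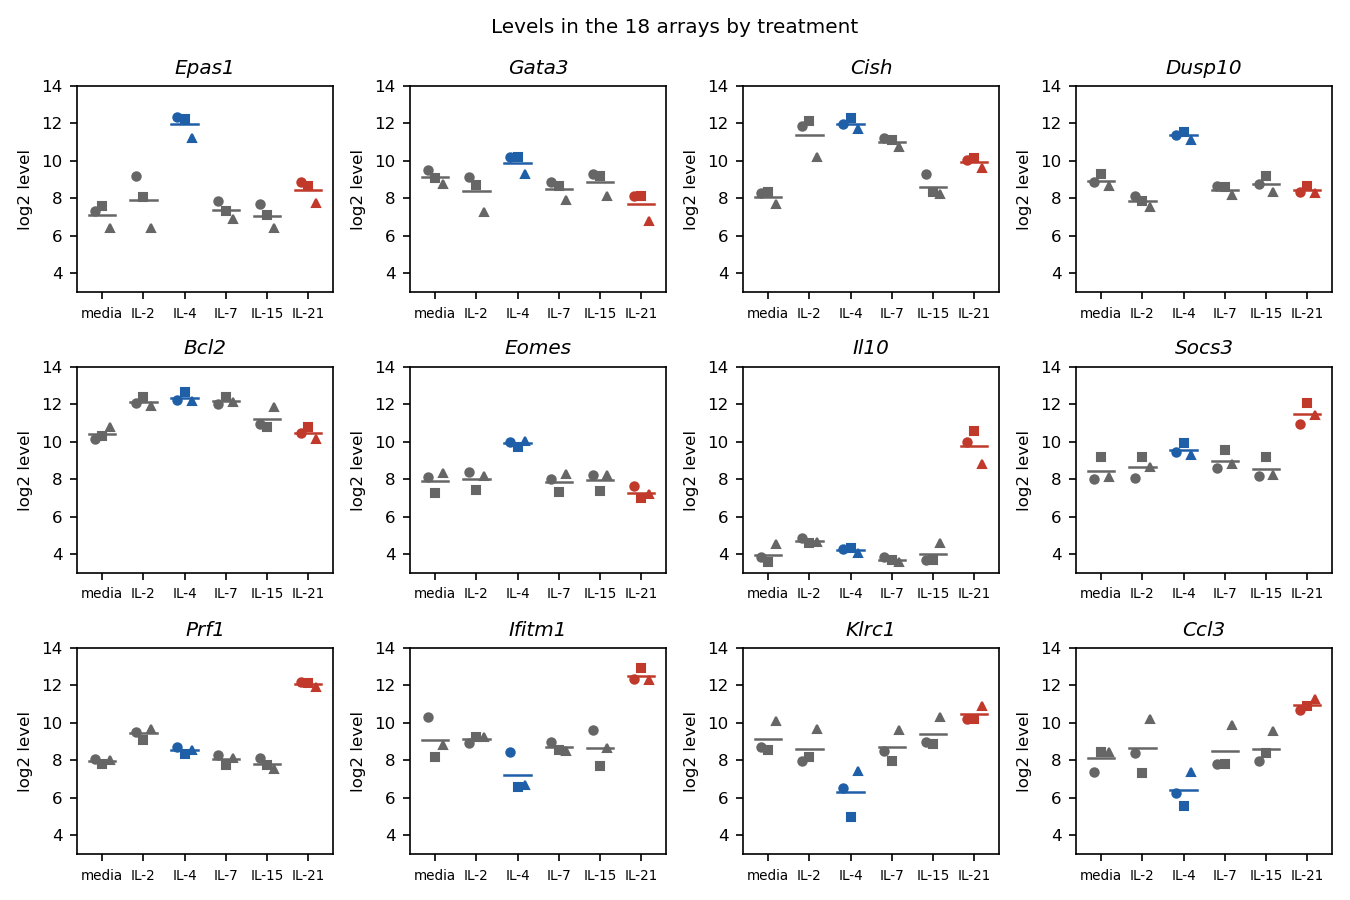
Log2 level (y axis) of 12 genes in the 18 arrays, by treatment (x axis), with circles, squares and triangles for replicates 1, 2 and 3, a bar for each group's mean, IL-4 in blue and IL-21 in red. Epas1, Dusp10 and Eomes are highest in the 3 IL-4 arrays and Il10, Prf1 and Socs3 in the IL-21 arrays, while Cish and Bcl2 are also high with IL-2 and IL-7.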

How the data were processed

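RNA from each of 18 cultures (6 groups of 3) was hybridised to a Mouse 430 2.0 GeneChip. The authors read the arrays with Affymetrix Command Console 3.1.1 and normalised all of them by RMA (robust multi-array average) in Expression Console 1.1, and the deposited values are log2 intensities, 1 per probe set and array, without detection calls. The unnormalised probe intensities are not analysed here. RMA puts every array on 1 distribution, yet 3 deposited arrays, the third replicates of the IL-2, IL-15 and media control groups, lay on a lower scale, so the 18 arrays were quantile normalised again. Of 45101 probe sets, 34958 were listed with 1 gene symbol, 932 with several and 9211 were not listed. Each of the 18194 genes was read by its probe set with the highest mean over the 18 arrays.

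The contrast of IL-4 minus IL-21 was fitted in limma 3.58.1 (R 4.3.3) over all 18 arrays with replicate number as a fixed block, which left 10 residual degrees of freedom, followed by eBayes, two-sided, with Benjamini-Hochberg adjustment over all genes and a threshold of 0.05. SE is that of the fit. The same replicate number marks the same extraction kit, and deviations from the group means of arrays with the same number correlated with each other in all 45 pairs (lowest 0.442, median 0.598), against at most 0.383 for different numbers. The labels call the replicates biological. Background was the 95th percentile of the levels of 35 genes of other tissues. Promoters were RefSeq windows of 300 bases, searched for exact letters in Python 3.11.15. The fit was tested on simulated data.

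The comparison and its gene lists were chosen with earlier results of these data known, so lists are given by counts and medians with no set test. Genes named were the 15 with the largest difference in each direction among those past the threshold with separate groups and a mean over background. Of the lists, some of the leading members past the threshold were named, and others that passed are in the counts only. Named too were genes of the receptor, JAK and STAT, SOCS and granzyme lists, 8 transcription factors and markers of cell types. Members of these lists that did not pass and lay near 0 are in the counts only. The alternatives were the deposited values, median centring, no block, a random block, the 6 arrays alone, 15 arrays, the mean of probe sets, a filter at background, a variance trend, and leaving out each replicate number or array.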

Additional observations from a re-analysis of the deposited data

How the results depend on the processing

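No gene called here was called in the other direction under any alternative. Of the 923 genes higher with IL-4 and the 1211 higher with IL-21, 83 and 140 passed on the deposited values of all 18 arrays, and 265 and 428 without the replicate block, where 693 of the 2134 calls were kept. With the 15 arrays that share a scale, 1535 and 1743 passed, all 2134 calls among them. Leaving out a replicate number or 1 array gave from 292 to 1263 and from 426 to 1650, with the lowest numbers without replicate 1 (292 and 426), 306 and 502 without replicate 2, and the highest without replicate 3, where only RNeasy arrays stay. The other 7 alternatives gave 749 to 1102 and 1081 to 1311. One of these, the deposited values of only the 6 arrays (837 and 1155), was chosen after seeing the data. The share of calls higher with IL-4 was 43.3%, and 37.2% to 47.9% under the alternatives.

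Named genes that passed kept the sign of their difference throughout, and the alternatives that ended a call stand beside the gene. Among named genes that did not pass, the sign turned for Ighm with the mean of its probe sets (0.009), and over the fits that leave out a replicate or an array for Cd4 (-0.067 to 0.247), Foxp3 (-0.127 to 0.102), Il2ra (-0.313 to 0.1), Klra8 (-0.059 to 0.268) and Pax5 (-0.047 to 0.1). The causes were not tested. Further probe sets were measured for 58 named genes that passed. Of 92 such probe sets 64 passed in the same direction and none in the other. Levels under background limit the size of a difference, since the lower group then has no measured level.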
